A study of Mus musculus with 6 samples.

Results

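The chromosome 5 neighbours of P2rx7 are the genes whose smallest start in the deposited table lies between 119.6 and 125.7 Mb on that chromosome (GRCm38), a window of 6.1 Mb around the knocked-out gene. The window held 232 rows of the table, and 217 of the table's 55291 genes were taken as neighbours. The other 15 rows were set aside by name: P2rx7 itself, P2rx4, Orai1, Atp2a2, 10 rows whose names start with Oas and 1 whose name starts with Psm. Position and name chose the neighbours, and the rule itself used no measured value. It was set with earlier results of these data known, however. The rows set aside are counted separately below, because the shares depended on them. Of the 217 neighbours, 106 are protein coding and 103 carry the names of predicted genes or numbered clones.

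RNA-seq libraries were made from marrow flushed out of the femurs of P2rx7 knockout mice (called knockout A, B and C) and wild-type mice (WT 1, 2 and 3), all aged 6 to 8 weeks, with 1 library per mouse and 3 mice per genotype. The labels do not say how the knockout allele was made, which exons it lacks, on which strain it was kept, or whether the wild types were littermates. The p-values below therefore measure the spread between 3 mice of each genotype.

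P2rx7 encodes a cation channel that opens when extracellular ATP binds to it, and it is known in macrophages and other myeloid cells for driving inflammasome activation. A knockout allele is inherited together with the DNA around it. When an allele made in the cells of one strain is bred onto another, genes close to it can keep the sequence of the donor strain in the knockouts and differ from the controls for that reason alone. A deletion or an inserted cassette can also change the transcription of adjacent genes. The comparison asks whether genes linked to P2rx7 differed between the genotypes more often than other genes of like level.

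The promoters of P2rx7 and of 3 neighbours that the results turn on are shown first, because the neighbours' start sites are where a change in local transcription would begin. Acad10, Aacs and Hcar1 are among the 6 neighbours of smallest p, share no exon bases with another gene and have an entry in the RefSeq table (GRCm38.p6). Each sequence runs from 250 bases before the gene's start to 50 bases after it, 5′ to 3′ on the gene's own strand, with CpG dinucleotides in capitals.
P2rx7, chr5:122643677-122643976, plus strand: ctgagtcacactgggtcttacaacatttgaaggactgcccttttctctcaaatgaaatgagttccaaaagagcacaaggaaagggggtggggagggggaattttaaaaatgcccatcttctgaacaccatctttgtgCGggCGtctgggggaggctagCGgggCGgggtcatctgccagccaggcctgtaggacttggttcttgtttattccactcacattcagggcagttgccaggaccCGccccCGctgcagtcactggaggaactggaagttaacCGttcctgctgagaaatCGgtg
Acad10, chr5:121660461-121660760, minus strand: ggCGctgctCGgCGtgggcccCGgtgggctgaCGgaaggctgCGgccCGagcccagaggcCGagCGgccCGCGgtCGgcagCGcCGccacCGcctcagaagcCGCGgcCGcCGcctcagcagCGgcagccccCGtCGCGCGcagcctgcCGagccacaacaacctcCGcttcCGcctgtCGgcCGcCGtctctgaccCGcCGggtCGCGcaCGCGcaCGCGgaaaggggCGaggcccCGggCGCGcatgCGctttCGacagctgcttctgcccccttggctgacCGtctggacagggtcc
Hcar1, chr5:123879954-123880253, minus strand: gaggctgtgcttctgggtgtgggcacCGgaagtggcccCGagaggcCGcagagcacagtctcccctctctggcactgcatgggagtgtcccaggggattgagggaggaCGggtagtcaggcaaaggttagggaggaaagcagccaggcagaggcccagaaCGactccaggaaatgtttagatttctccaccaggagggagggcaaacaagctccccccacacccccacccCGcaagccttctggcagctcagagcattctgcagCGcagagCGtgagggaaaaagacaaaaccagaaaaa
Aacs, chr5:125475623-125475922, plus strand: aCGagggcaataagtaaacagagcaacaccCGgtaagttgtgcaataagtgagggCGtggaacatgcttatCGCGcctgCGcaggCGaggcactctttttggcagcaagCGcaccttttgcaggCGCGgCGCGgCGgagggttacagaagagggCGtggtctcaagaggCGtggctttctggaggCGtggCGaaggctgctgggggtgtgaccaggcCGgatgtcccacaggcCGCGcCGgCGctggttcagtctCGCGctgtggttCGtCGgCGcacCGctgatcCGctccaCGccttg
The Acad10 promoter had a GC content of 77.0% with 45 CpG dinucleotides, and the start of the oppositely transcribed gene Brap lies inside it at position 121660563. The Aacs promoter had a GC content of 63.3% with 30 CpG dinucleotides. P2rx7 and Hcar1 each had 8, at a GC content of 53.3% for P2rx7 and 59.7% for Hcar1.

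An entry in the RefSeq table was found for 67 of the 99 neighbours that could be tested. Their median GC content was 63.7%, against 52.7% over all 32851 promoters of the table, and their median number of CpG dinucleotides was 28, against 7. On either strand, the GC box GGGCGG was found in 71.6% of the neighbours' promoters, against 35.7% of all promoters. The TATA box TATAAA was found in 1.49% of them, against 13.6%. The CCAAT box CCAAT was found in 32.8% of them, against 37.4%. The E-box CACGTG was found in 7.46%, against 7.15%. The heat shock motif GAANNTTC was found in 2.99%, against 7.86%. The neighbours with an entry thus had mostly promoters rich in GC and CpG, which is a description of the letters in these windows. Many rows of the whole table belong to genes that were not expressed in these libraries.

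Total counts were 22382281 for knockout A, 18716704 for knockout B and 19663655 for knockout C, against 20037343 for WT 1, 23575652 for WT 2 and 23311296 for WT 3. Macrophage markers (Csf1r, Adgre1 and Cd68) were abundant, at a summed 2741 to 3008 CPM (counts scaled to the size of the library) in knockouts, against 2682 to 2767 CPM in wild types. Defining markers of several marrow lineages were almost absent: the erythroid genes Hbb-bs and Hba-a1 had at most 5 counts in a library, the B lineage genes Cd79a and Pax5 at most 12, and the T cell gene Cd3e had 0. Cd4, also listed as a T cell marker, had 127 to 146 counts in knockout libraries, against 130 to 249 in wild types. Summed marrow stroma markers (Cxcl12, Lepr and Kitl) were at 4315 to 5295 CPM in knockouts, against 1426 to 3381 CPM in wild types, and their part in the neighbours' values was not tested. Traces of other tissues divided the libraries. The pituitary gene Gh had 23, 0 and 0 counts in knockout libraries A, B and C, against 54, 82 and 75 in WT 1, 2 and 3, and the liver gene Alb had 0, 46 and 36 counts in knockout libraries A, B and C, against 0 in each wild type. Knockouts B and C thus form a set of libraries without any wild type, and in that set the library set and the genotype cannot be told apart. In bulk marrow, fewer cells of a type and less RNA per cell cannot be told apart either.

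P2rx7 was the check of the genotype labels. It runs along the plus strand between positions 122643911 and 122691432 of chromosome 5. Counts of P2rx7 were 876, 722 and 748 in the knockout libraries A, B and C, against 1207, 1410 and 1453 in WT 1, 2 and 3. Its level was 38.4 ± 0.934 CPM in knockouts, against 61.2 ± 1.27 CPM in wild types (SD, n = 3 each), and the groups did not overlap. P2rx7 fell, with a log2 fold change of -0.67 ± 0.05 (SE; 95% interval -0.78 to -0.56; edgeR's quasi-likelihood test, Benjamini-Hochberg adjusted p = 0.0109 over all tested genes). With 3 mice against 3, the exact two-sided permutation test cannot go below its p of 0.1. The call was lost without knockout B (-0.67), without knockout C (-0.65), when the library set was a term in the fit (-0.64), and with knockout A as the only knockout (-0.64). In the fit without knockout B, and likewise in that without knockout C, 0 of all tested genes passed the adjusted threshold. The fitted ratio was 62.8% of wild type, so transcript was still made, and counts summed over all exons cannot tell which of them the allele lacks.

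Of the 217 neighbours, 99 had enough counts to be tested, 40 of them before P2rx7 and 59 after it. The tested neighbours comprised 85 protein-coding genes, and 14 of the 99 bore names of predicted genes or clones. Their mean levels, per length, ran between 0.0331 and 127 FPKM (fragments per kilobase of exon, scaled to the size of the library) with a median of 4.17 FPKM. Of the 118 that did not pass the filter, 40 had no count in any library, and no library held more than 14 counts of any of them. The untested gene with a named symbol and the most counts was Rasal1, a Ras GTPase-activating protein, with 6, 7 and 10 counts in knockout libraries A, B and C, against 4, 7 and 8 in WT 1, 2 and 3. The predicted genes Gm15846 and Gm49027 had 53 and 38 counts summed over the 6 libraries. Gm49027 had 3, 4 and 4 counts in knockout libraries A, B and C, against 7, 7 and 13 in WT 1, 2 and 3. Gm15846 had 6, 6 and 12, against 9, 9 and 11. Without a filter on low counts, edgeR's test took in 177 neighbours, the 99 included. Of these, 15 (8.47%) had an unadjusted p below 0.05, against 11.6% of all genes in that fit. The main fit did not test the 118, and differences in them are hard to detect at this depth.

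None of the neighbours passed the threshold. With edgeR's quasi-likelihood test and an adjusted threshold of 0.05, 0 of the 99 tested neighbours were called, against 16 of all 15478 tested genes (0.103%). At an unadjusted p of 0.05, 11 neighbours (11.1%) were called, against 16.6% of all tested genes. In detail, 5 were higher in knockouts, against a background of 8.35%, and 6 were lower, against a background of 8.22%. DESeq2 called 1 neighbour at an adjusted p of 0.05, against 496 of all 15478 tested genes, and 7 (7.07%) at an unadjusted p of 0.05, against 12.3% of all tested genes. In 18 neighbours (18.2%) the 3 knockouts and the 3 wild types did not overlap, against 21.9% of all tested genes. Of these, 10 were higher in knockouts, against a background of 11.5%, and 8 were lower, against a background of 10.4%.

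Genes of like level gave the closest comparison. Tested genes were divided into 3 equal bins by mean log2 CPM, and at an unadjusted p of 0.05 the lowest bin held 5 of 35 neighbours (14.3%), against 12.8% of the other genes in that bin. The middle bin held 1 of 31 (3.23%), against 16.6% of other genes. The highest bin held 5 of 33 (15.2%), against 20.4% of other genes. The neighbours' share was above that of other genes in the lowest bin and below it in both bins of higher level. This holds only without the rows set aside by name, which were counted here among the other genes. Of those rows, Oas2, Oas3, P2rx4 and Atp2a2 in the highest bin had an unadjusted p below 0.05. So had Oas1g and Oas1a in the middle bin and Oas1c in the lowest. Shares by bin with these rows added were not computed. The share of neighbours whose groups did not overlap was 20% in the lowest bin, against 18.6% of other genes, 12.9% in the middle bin, against 21.9%, and 21.2% in the highest bin, against 25.3%.

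**Figure D1:**
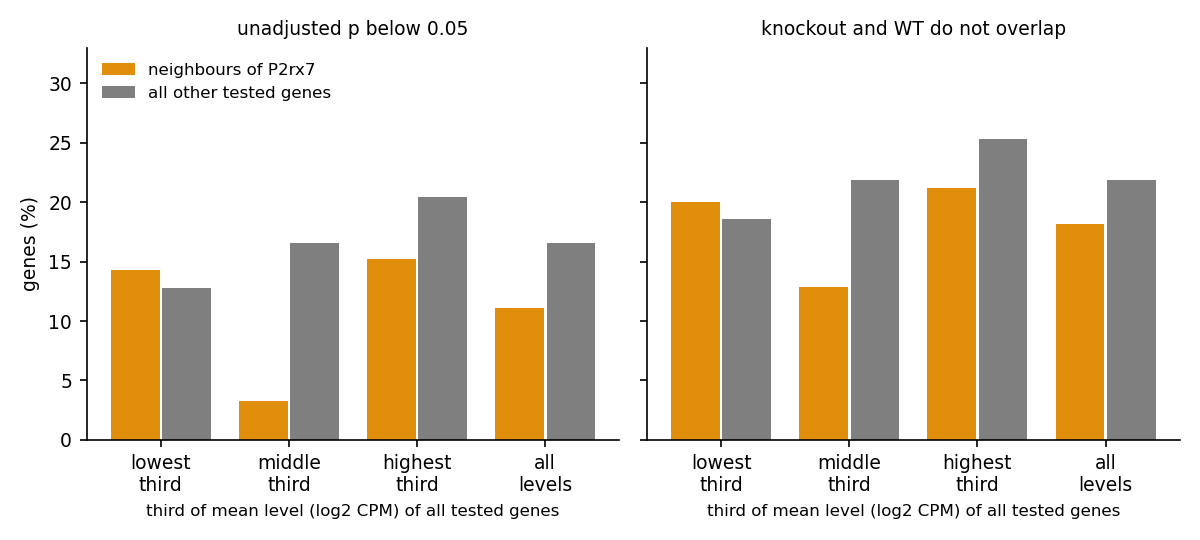
Percent of tested genes at an unadjusted p below 0.05 (edgeR, left panel) and percent whose 3 knockouts and 3 wild types did not overlap (right panel), as bars for the neighbours and for all other tested genes, in 3 bins of level and over all levels. Over all levels the neighbours stand at 11.1% and 18.2%, against 16.6% and 21.9% of other genes. The rows set aside by name count among the other genes.

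Other stretches of the same chromosome were measured in the same fit, but no rows were set aside from them by name. Of 889 tested genes on the rest of chromosome 5, 17.7% were called at an unadjusted p of 0.05 and 22.5% did not overlap. Among the 70 tested genes of the window of equal width just before, 18.6% were called and 22.9% did not overlap. Among the 32 tested genes of the window just after, 21.9% were called and 18.8% did not overlap. The neighbours had the lowest share at an unadjusted p of 0.05 of these 4 stretches, and the differences between stretches were not tested. With the rows set aside by name added, apart from P2rx7, the neighbours' window stood at 16.5% called and 22.9% without overlap. That is closer to the other stretches.

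The sizes of the differences were small. The median log2 fold change was 0.01 over the neighbours and 0.00 over all tested genes, with 53 neighbours above 0 and 46 below. The median absolute log2 fold change was 0.08 for the neighbours and 0.11 for all tested genes, and the neighbours' fold changes ran between -0.83 and 0.93 on the log2 scale. In 57 neighbours (57.6%) the absolute log2 fold change was under 0.1, against 47.8% of other genes. The 95% interval lay within 1.5-fold of equality in 72 neighbours (72.7%), against 70.2% of all tested genes, and this held for all 31 neighbours of the middle bin of level and all 33 of the highest bin. In the lowest bin it held for 8 of 35. In 90 neighbours the lower bound of the 95% interval lay above the log2 fold change of P2rx7 (-0.67). The share of other genes for which this held was not counted, so it is no trait of the neighbours. Only 2 neighbours, the predicted gene Gm43412 and Hcar1, had a larger absolute log2 fold change than P2rx7.

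**Figure D2:**
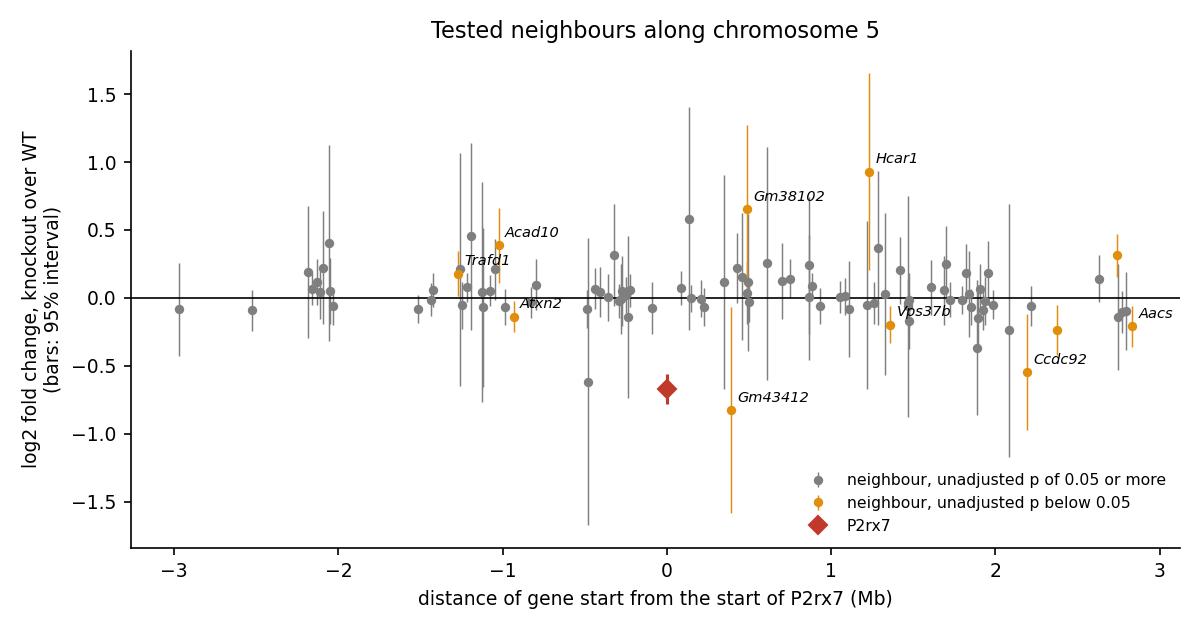
Log2 fold change (knockout over wild type, edgeR) of each of the 99 tested neighbours against the distance of its start from the start of P2rx7, with bars for the 95% intervals. Of the 11 neighbours at an unadjusted p below 0.05, 9 are named. Most points lie close to 0 along the whole window, and P2rx7, drawn for comparison, lies at -0.67. The other rows set aside by name are not drawn.

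The neighbours were also grouped by distance from P2rx7, and no test of order was run. At an unadjusted p of 0.05 the share over all tested genes was 16.6%. Within 0.5 Mb, 2 of 26 tested neighbours had an unadjusted p below 0.05 and the median absolute log2 fold change was 0.07. Between 0.5 and 1 Mb these values were 1 of 11 and 0.10, between 1 and 2 Mb they were 4 of 42 and 0.07, and beyond 2 Mb they were 4 of 20 and 0.13. Among the neighbours kept by the rule, both the share called and the median were thus highest beyond 2 Mb. The bins leave out the rows set aside by name. Of those with an unadjusted p below 0.05, P2rx4 and Atp2a2 lie within 0.5 Mb. Oas2, Oas3, Oas1c, Oas1g and Oas1a lie between 1 and 2 Mb, so the low shares of these 2 bins depend on that choice. At the ends of the window, Tbx3 just inside the first end had a log2 fold change of -0.08 and Med13l just outside it 0.06. At the other end, Aacs just inside had a log2 fold change of -0.21 and the predicted gene Gm7774 just outside it -0.12.

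The genes nearest to P2rx7 include 2 that were set aside by name and whose groups did not overlap. P2rx4, another ATP-gated channel, starts 63.6 kb after P2rx7 and had a log2 fold change of 0.22 ± 0.06 (SE; unadjusted p = 0.00700, edgeR). Atp2a2, the calcium pump of the endoplasmic reticulum, starts 190 kb before it and had one of -0.18 ± 0.07 (SE; unadjusted p = 0.0255, edgeR). Among the neighbours kept by the rule, the knockouts and wild types overlapped in each of the 5 nearest on either side. Over all tested genes, 21.9% did not overlap, and the difference from that share was not tested. On the proximal side the nearest neighbour kept is Ift81, a subunit of the intraflagellar transport complex that builds cilia, which starts 93.7 kb before P2rx7. It was at 10.5, 9.51 and 10.6 CPM in knockouts A, B and C, against 10.6, 10.9 and 10.7 CPM in WT 1, 2 and 3. The groups overlapped at the top of the knockouts' range, and the log2 fold change was -0.07 ± 0.08 (SE; 95% interval -0.27 to 0.12). Anapc7, a subunit of the anaphase-promoting complex, had a log2 fold change of 0.06. Arpc3, a subunit of the Arp2/3 complex that nucleates actin filaments, had one of 0.02, and Gpn3, a GTPase needed to bring RNA polymerase II into the nucleus, one of 0.05. The directions of Arpc3 and Gpn3 turned to -0.02 each with the library set as a term. The predicted gene Gm42829, at 1.15 ± 0.298 CPM in knockouts, against 1.26 ± 0.215 CPM in wild types (SD, n = 3 each), was too low for a narrow interval (-0.73 to 0.46).

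On the distal side the nearest neighbour kept, beyond P2rx4, is Camkk2, a calcium-dependent kinase that activates AMPK, which starts 87.3 kb after P2rx7. Camkk2 was at 88.5, 85.2 and 83.6 CPM in knockouts A, B and C, against 84.1, 76.2 and 84.1 CPM in WT 1, 2 and 3. The groups overlapped, with WT 2 lowest, and the log2 fold change was 0.08 ± 0.05 (SE; 95% interval -0.05 to 0.20). Anapc5, another subunit of the anaphase-promoting complex, was at 205, 211 and 212 CPM in knockouts A, B and C, against 216, 208 and 207 CPM in WT 1, 2 and 3. Its 95% interval, -0.10 to 0.10 on the log2 scale, was among the narrowest of the neighbours. Rnf34, a ubiquitin ligase, had a log2 fold change of -0.00, with an interval of -0.14 to 0.13. Kdm2b, a histone demethylase of a polycomb complex, had one of -0.07, with an interval of -0.21 to 0.07. The predicted gene Gm43684, whose start faces that of Camkk2, had a log2 fold change of 0.58 ± 0.36 (SE) at 0.718 ± 0.189 CPM in knockouts, against 0.473 ± 0.173 CPM in wild types, and its groups overlapped.

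**Figure D3:**
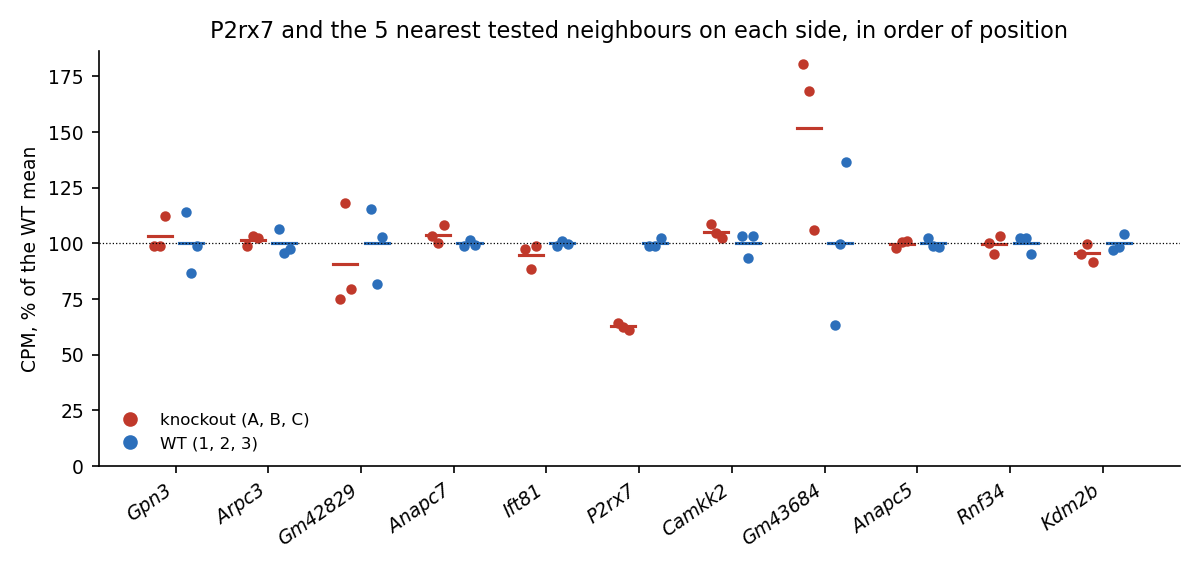
CPM (TMM-scaled) of P2rx7 and its 5 nearest tested neighbours on each side, as a percent of the gene's wild-type mean, with a point per knockout and wild-type library and a line for each group mean. The groups overlap in each of the 10 neighbours and are apart for P2rx7, at 62.8% in the fit. Over all tested genes, 21.9% did not overlap. P2rx4 and Atp2a2, tested but set aside by name, lie within this stretch and are not drawn. Their groups did not overlap.

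Of the 10 neighbours of smallest p, 8 are described next. Their values are no calls, since edgeR's quasi-likelihood test gave all of them adjusted p-values between 0.192 and 0.271. Vps37b, on the minus strand at 124004641 to 124032270, encodes a subunit of the ESCRT-I complex that sorts ubiquitinated membrane proteins into endosomes. It was at 18.6, 19.1 and 19.1 CPM in knockouts A, B and C, against 21.4, 22.1 and 21.5 CPM in WT 1, 2 and 3. Both groups were tight and did not overlap, at a log2 fold change of -0.20 ± 0.06 (SE; edgeR adjusted p = 0.192). Vps37b shares 918 exon bases with Hip1r on the other strand, and the use of strand in counting is not given in the sources used here, so reads of the pair cannot be told apart.

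Acad10, on the minus strand at 121621026 to 121660514, encodes a member of the acyl-CoA dehydrogenase family, enzymes of fatty acid oxidation. It was at 6.25, 6.32 and 7.47 CPM in knockouts A, B and C, against 5.36, 4.97 and 5.003 CPM in WT 1, 2 and 3. The groups did not overlap, and the log2 fold change was 0.39 ± 0.12 (SE; edgeR adjusted p = 0.200). Its adjacent relative Acad12 also did not overlap, at 10.8 ± 0.686 CPM in knockouts, against 9.35 ± 0.768 CPM in wild types (SD, n = 3 each), with a log2 fold change of 0.21 (unadjusted p = 0.0613, edgeR). Brap, transcribed away from the start of Acad10 at a distance of 49 bases within the promoter printed above, had a log2 fold change of -0.07 ± 0.06 (SE).

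Aacs, on the plus strand at 125475814 to 125517410, encodes acetoacetyl-CoA synthetase, which feeds the ketone body acetoacetate into lipid synthesis. It was at 54.0, 53.6 and 53.4 CPM in knockouts A, B and C, against 60.4, 67.9 and 57.9 CPM in WT 1, 2 and 3. The 3 knockouts lay within 1 CPM of one another and below all wild types, at a log2 fold change of -0.21 ± 0.07 (SE; edgeR adjusted p = 0.200).

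Hcar1, on the minus strand at 123876736 to 123880020, encodes a receptor for lactate known from adipocytes, where it restrains lipolysis. It was at 3.10, 2.76 and 3.26 CPM in knockouts A, B and C, against 2.21, 0.814 and 1.81 CPM in WT 1, 2 and 3. The groups did not overlap, WT 2 was lowest, and the log2 fold change of 0.93 ± 0.31 (SE; 95% interval 0.21 to 1.65; edgeR adjusted p = 0.221) was the highest among the tested neighbours. It was 0.60 without WT 2 and 1.21 without WT 1. Without a filter on low counts its adjusted p was 0.0492 in edgeR's test. The adipocyte markers Adipoq, Plin1 and Cd36 moved with it: each was higher in all 3 knockouts than in any wild type, and their sum was 531 to 610 CPM in knockouts, against 326 to 414 CPM in wild types. Adipoq, like Hcar1, was lowest in WT 2, with 2481, 1886 and 1638 counts in knockout libraries A, B and C, against 880, 272 and 1169 in WT 1, 2 and 3. Plin1 was also lowest in WT 2, but Cd36 was lowest in WT 3, at 351, 311 and 297 CPM in WT 1, 2 and 3. Cd36 alone was at 422 to 457 CPM in knockouts, the largest part of the sum. The part of these cells in the difference of Hcar1 was not tested.

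Ccdc92, on the minus strand at 124834418 to 124862424, encodes a coiled-coil protein of centrioles and cilia. It was at 1.44, 1.65 and 1.35 CPM in knockouts A, B and C, against 1.95, 2.40 and 2.11 CPM in WT 1, 2 and 3. The groups did not overlap, at a log2 fold change of -0.55 ± 0.18 (SE; edgeR adjusted p = 0.220). The predicted gene Gm43412 was at 0.360, 0.372 and 0.201 CPM in knockouts A, B and C, against 0.551, 0.600 and 0.518 CPM in WT 1, 2 and 3, with 56 counts over all 6 libraries. It shares 429 exon bases with Morn3, which had 9 counts, and its log2 fold change of -0.83 ± 0.33 (SE; edgeR adjusted p = 0.268) was the lowest among the tested neighbours.

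Atxn2 encodes an RNA-binding protein that takes part in translation and stress granules. It was at 99.2, 95.4 and 93.2 CPM in knockouts A, B and C, against 100.2, 108 and 108 CPM in WT 1, 2 and 3. The groups lay close and did not overlap, at a log2 fold change of -0.14 ± 0.05 (SE; edgeR adjusted p = 0.240). Trafd1 encodes a zinc finger protein that dampens innate immune signalling. It was at 130, 141 and 141 CPM in knockouts A, B and C, against 128, 109 and 127 CPM in WT 1, 2 and 3, with a narrow gap between knockout A and WT 1 and a log2 fold change of 0.18 ± 0.07 (SE; edgeR adjusted p = 0.271). It was 0.10 both without WT 2 and with the library set as a term, a term that took the log2 fold change of Atxn2 to -0.09.

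**Figure D4:**
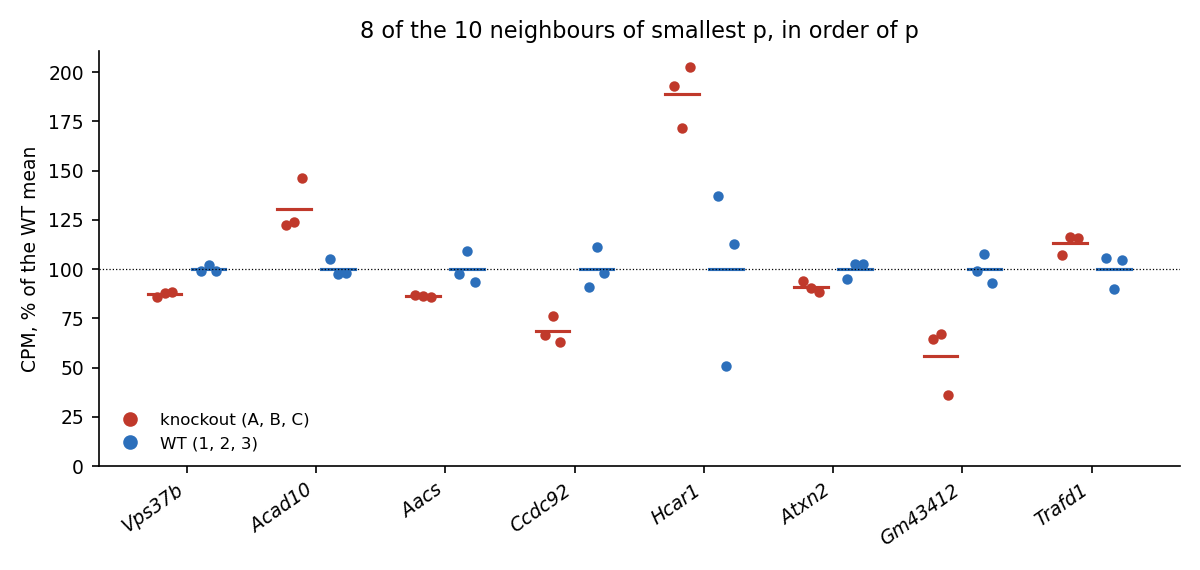
CPM (TMM-scaled) of 8 of the 10 neighbours of smallest p as a percent of the gene's wild-type mean, with a point per knockout and wild-type library and a line for each group mean. The groups do not overlap in any of the 8, and no gene passed an adjusted p of 0.05.

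Read by role, 73 of the 99 tested neighbours fell in 7 role lists. The lists' counts at an unadjusted p of 0.05 stand against 16.6% of all tested genes. None of the lists held a gene past the adjusted threshold. Of 12 tested genes for RNA processing and translation, 0 had an unadjusted p below 0.05, and the list's log2 fold changes ran between -0.10 and 0.06. Rpl6, a protein of the large ribosomal subunit, was at 59.0 ± 2.999 FPKM in knockouts, against 59.9 ± 1.08 FPKM in wild types (SD, n = 3 each). Arl6ip4, a splicing-related protein, had a log2 fold change of -0.02, and the RNA helicase Ddx54 one of -0.06.

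Of 8 tested channels, transporters and lysosomal or membrane proteins, 0 had an unadjusted p below 0.05, at a median log2 fold change of 0.07. The lysosomal protein Plbd2 had a log2 fold change of 0.06. The HDL receptor Scarb1 had one of 0.14, and the endolysosomal channel Tpcn1 one of 0.04, which was -0.02 without WT 1. In the list for chromatin and transcription, 2 of 12 had an unadjusted p below 0.05, both lower, and among them was Atxn2, which acts on RNA rather than on chromatin. Kmt5a, which methylates histone H4, was at 89.5 ± 1.41 CPM in knockouts, against 90.3 ± 2.87 CPM in wild types (SD, n = 3 each). Mlxip, a transcription factor that responds to glucose, was at 123 ± 4.94 CPM in knockouts, against 112 ± 8.15 CPM in wild types (SD, n = 3 each), without overlap.

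Of 9 tested genes for kinases and signalling, 1 had an unadjusted p below 0.05, Trafd1. Sh2b3, an adaptor that restrains cytokine signalling in blood cells, had a log2 fold change of -0.03, and 0.04 with the library set as a term. Ptpn11, the SHP2 phosphatase of growth factor signalling, had one of -0.08 without overlap of its groups. Of 7 genes for mitochondria and metabolism, 2 had an unadjusted p below 0.05, Acad10 higher and Aacs lower. Aldh2, the mitochondrial aldehyde dehydrogenase, was at 98.1 ± 0.964 FPKM in knockouts, against 94.99 ± 2.75 FPKM in wild types (SD, n = 3 each). Ogfod2, an oxygenase family member, had a log2 fold change of -0.04.

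Of 12 genes for ubiquitin ligases, cell cycle and division, 1 had an unadjusted p below 0.05, in the direction of higher values in knockouts. Ppp1cc, a catalytic subunit of protein phosphatase 1, had a log2 fold change of -0.08. Of 13 genes for vesicle traffic, cytoskeleton and cilia, 2 had an unadjusted p below 0.05, Vps37b and Ccdc92, both lower. Arpc3 was the most abundant neighbour per length, at 128 ± 2.18 FPKM in knockouts, against 126 ± 6.42 FPKM in wild types (SD, n = 3 each). Vps33a, which tethers vesicles to lysosomes, had a log2 fold change of 0.09 without overlap of its groups, and Tmed2, a cargo receptor of the early secretory pathway, had one of -0.15. The 26 tested neighbours in no role list included 3 with an unadjusted p below 0.05.

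**Figure D5:**
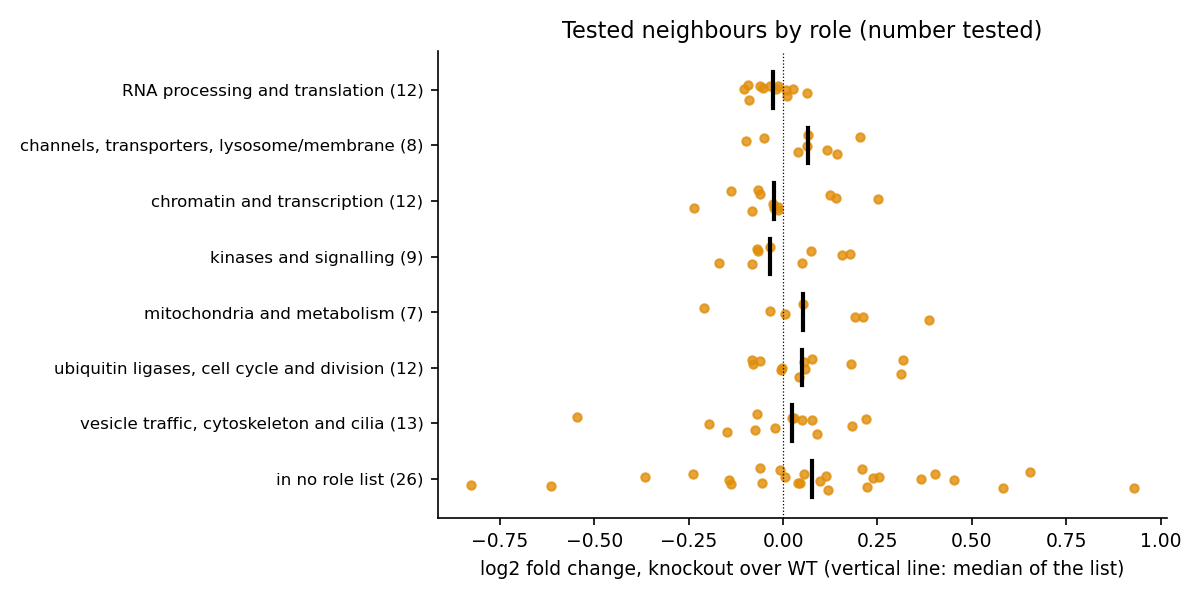
Log2 fold change (knockout over wild type, edgeR) of each tested neighbour, grouped by role list, with a vertical line at the median of each list. The medians of the 7 role lists lie between -0.03 and 0.07.

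Pairs of neighbours transcribed away from a shared start region were set side by side. In 12 pairs the starts lay within 1 kb on opposite strands, and 7 pairs had fold changes of the same sign. Rad9b, a relative of the checkpoint protein Rad9, had a log2 fold change of 0.32, and Vps29, a retromer subunit that starts 136 bases away, had one of -0.02. Ccdc92 had a log2 fold change of -0.55, and the zinc finger gene Zfp664, at 267 bases, had one of -0.06. Eif2b1, a subunit of the factor that recharges eIF2, had a log2 fold change of -0.09, and Gtf2h3, a subunit of TFIIH at 9 bases, had one of -0.02.

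Within each library the neighbours took like shares of the counts. They held 0.504%, 0.513% and 0.503% of all counts in knockout libraries A, B and C, against 0.498%, 0.494% and 0.5005% in WT 1, 2 and 3. The median neighbour, relative to the wild-type mean, was at -0.00, 0.05 and 0.02 on the log2 scale in knockouts A, B and C, against -0.01, -0.01 and 0.01 in WT 1, 2 and 3. With the library set as a term, 5 neighbours (5.05%) had an unadjusted p below 0.05, against 5.78% of all tested genes. In the 4 libraries of knockout A and the wild types, 2 of 103 neighbours (1.94%) did, against 4.06% of all tested genes. Both of these fits rest the genotype effect on knockout A alone, and in the fit of 4 libraries the lone knockout is assumed to vary like the wild types. Without WT 2 the count was 5 (5.0%, against 10.6%), and without knockout B it was 7 (7.0%, against 9.22%).

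The rows set aside by name are counted separately. Of the 10 tested besides P2rx7, 7 had an unadjusted p below 0.05 in edgeR's test and 0 passed the adjusted threshold. The 6 that were higher in knockouts were P2rx4 and Oas2, Oas3, Oas1c, Oas1g and Oas1a, of the family of interferon-induced sensors of double-stranded RNA. Atp2a2 was lower. With these rows added, 18 of 109 genes of the window (16.5%) had an unadjusted p below 0.05, against 16.6% of all tested genes, and 25 (22.9%) did not overlap, against 21.9%. The share of the window thus depended on which rows were set aside, while 0 genes of it other than P2rx7 passed the adjusted threshold in edgeR's test either way.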

How the data were processed

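RNA of marrow flushed from the femurs of 6 mice was sequenced. The deposited table holds raw counts and FPKM values per gene and library, per the file headers, and the authors' FPKM values were used for levels only. Per the submitters' processing notes the build is GRCm38, also called mm10. The sources used here do not give the aligner, the counter or the strand setting.

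Counts were tested with edgeR 4.0.16 (filterByExpr, TMM, glmQLFit and glmQLFTest) in R 4.3.3, over all 15478 genes that passed the filter, with Benjamini-Hochberg adjustment and a threshold of 0.05. Intervals are 95% and follow from the test. CPM values are TMM-scaled, except those of cell type markers, alone or summed, which use library totals. Scripts were tested on simulated data. DESeq2 1.42.0 and limma 3.58.1 served as alternatives. Groups come from the genotype labels. Gene types come from GENCODE M21, which gave the same position for 213 of the 217 neighbours. Exon overlaps come from the positions in the deposited table.

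The members and lists were chosen with earlier results of these data known. Named genes are the 10 neighbours of smallest p, the 5 nearest on each side, the 3 of highest FPKM overall and per role list, the 3 untested of highest count and those at the ends of the window. Others are named from the pairs of starts, from the rows set aside, or as genes without overlap (Acad12), chosen after their values were seen. Some genes that the rule takes are not reported here.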

Additional observations from a re-analysis of the deposited data

How the results depend on the processing

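The share of neighbours at an unadjusted p of 0.05 was below that of all tested genes in all 17 fits, of which the set term and the 4-library fit rest on 1 knockout, and the share without overlap in 15 of 16, the exception being the fit without knockout C (31.0%, against 30.3%). All these fits drew on the same 6 libraries and left out the rows set aside by name, so their agreement is no separate evidence. With those rows added, the main fit gave 16.5%, against 16.6%. The number past the adjusted threshold was 2 without a filter on low counts (among them Hcar1 at 0.92) and 1 in DESeq2, where 970 and 496 of all genes passed, and it was 0 in each other fit. The number at an unadjusted p of 0.05 was 7 in DESeq2 (7.07%, against 12.3% of all tested genes) and 5 with the library set as a term (5.05%, against 5.78%). It was 3 within 1 Mb of P2rx7 (8.11%) and 4 without neighbours that share exon bases (8.33%), both against 16.6%. With the rows set aside by name added, an alternative chosen after seeing the data, it was 18 (16.5%, against 16.6%). With 1 library left out it was 5 to 13 (5.0% to 13.1%, against 9.22% to 21.9%). The number without overlap was 52 for knockout A against the wild types, 6 within 1 Mb, 7 without shared exon bases, and 22 to 35 with 1 library left out, where fewer samples make separation easier. The median log2 fold change was 0.039 within 1 Mb and -0.005 to 0.029 with 1 library left out. For other differences between settings the cause was not tested. Of 36 named genes, 26 kept their direction in every alternative, and the other 10 lay near 0. With the library set as a term and for knockout A alone, log2 fold changes were -0.018 and -0.021 for Arpc3, -0.016 and -0.020 for Gpn3, 0.043 and 0.040 for Sh2b3, and 0.0085 and 0.0054 for Ogfod2, and the set term gave 0.0013 for Rnf34. Upper quartile scaling gave 0.0023 for Anapc5 and 0.00019 for Rnf34. With 1 library left out, log2 fold changes were -0.0087 to 0.064 for Arpc3, -0.042 to 0.15 for Gpn3, -0.014 to 0.012 for Anapc5, -0.038 to 0.026 for Rnf34, -0.044 to 0.034 for Rpl6, -0.076 to 0.063 for Arl6ip4, -0.022 to 0.14 for Tpcn1, -0.032 to 0.012 for Kmt5a, -0.073 to 0.0062 for Sh2b3 and -0.059 to 0.0056 for Ogfod2. No paired analysis was possible because wild types carry numbers and knockouts carry letters. Depth limits the lowest bin of level most, and the count of 3 mice per genotype limits every test.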
